A study of Mus musculus with 7 samples.

Results

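The genes described here build the degradative interior of the lysosome and the pump that acidifies it: the cathepsins, the vacuolar proton pump (V-ATPase) with its accessory proteins, the LAMP membrane proteins, the 5 Ragulator subunits, and Tfeb, Mcoln1, Npc1 and Npc2. They were taken by gene symbol from the probe sets that the platform annotation pairs with a single gene, with cathepsin S left out. The rule reads symbols alone, but it was written with earlier results of these data known. The rule found 48 genes of 17097, read by 82 probe sets of 28898 with a single symbol. A probe set is a group of short array probes for 1 transcript, and 19 of the 48 genes had more than 1. Of the 48 genes, 36 lay above the level filter used for testing (described with the results) and 12 lay below it. Those below it were 4 pump subunits (Atp6v0a4, Atp6v0d2, Atp6v1b1 and Atp6v1c2), 4 cathepsins (Ctsc, Ctso, Ctsg, known from neutrophils, and Ctsk, known from osteoclasts), and the 4 placental cathepsins Ctsj, Ctsm, Ctsq and Ctsr.

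Expression was measured on 7 Affymetrix mouse arrays of sorted colon adenoma cells, 3 from Mex3a KO mice and 4 from Mex3a WT mice. Mex3a encodes an RNA-binding protein. In KO mice 1 copy of Mex3a held a Tomato reporter and the other was floxed (Mex3a tom/flox), while in WT mice the copy beside the reporter was wild type (Tom/+), so neither group had 2 unmodified copies. Both groups also carried Villin CreERT2, a tamoxifen-inducible Cre recombinase expressed in gut epithelium, and APC fl/+, 1 floxed copy of the Apc tumour suppressor. Both received tamoxifen on 4 occasions and drank 2% DSS, which injures the colon lining, for the next 5 days; adenomas were taken 2 months after DSS ended. Cells positive for Epcam and Tomato were sorted, a gate for epithelial cells with an active Mex3a promoter. RNA from 2000 cells per sample was amplified over 24 cycles. How many animals a sample holds, and their age and sex, are not given here, so the p-values cover only the differences among these samples, which may be technical.

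Cathepsins are proteases that cut proteins in the acidic lumen of the lysosome; most use a cysteine in the active site, while Ctsd and Ctse are aspartic and Ctsa is a serine carboxypeptidase. The V-ATPase acidifies that lumen: its peripheral V1 sector hydrolyses ATP and turns a rotor, and its membrane-embedded V0 sector carries protons across. Ragulator anchors the Rag GTPases on the lysosomal surface, where mTORC1 is switched on when amino acids are plentiful. TFEB, the transcription factor encoded by Tfeb, moves to the nucleus when mTORC1 is inactive and binds an E-box in the promoters of many lysosomal genes, cathepsins and pump subunits among them.

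Because that E-box is known from promoters of this class of genes, the members' promoters were read for it, as sequences from RefSeq on GRCm38.p6 covering 250 bases before to 50 bases after a gene's start. Promoters were matched for 38 of the 48 genes, and Atp6v0a2, Atp6v0d2, Atp6v1b2, Atp6v1h, Ctsb, Ctse, Ctsh, Ctsw, Lamtor3 and Npc1 had no entry. The 6 windows printed here are 5 that hold the core letters, from a serine and an aspartic cathepsin, the lysosomal calcium channel, a LAMP and the catalytic V1 subunit, and that of Atp6ap2, which holds none and is the pump gene with the smallest p below. Each is written 5′ to 3′ on the gene's own strand, and capitals mark the core CACGTG together with a T before it or an A after it where the extended letters TCACGTG occur on either strand. Their positions are chr2:164833523-164833822 (plus strand) for Ctsa, the second of the 2 starts listed for this gene; chr7:142387778-142388077 (minus) for Ctsd; chr8:3500269-3500568 (plus) for Mcoln1; chr8:13158911-13159210 (plus) for Lamp1; chr16:44139210-44139509 (minus) for Atp6v1a; and chrX:12587509-12587808 (plus) for Atp6ap2.
Ctsa: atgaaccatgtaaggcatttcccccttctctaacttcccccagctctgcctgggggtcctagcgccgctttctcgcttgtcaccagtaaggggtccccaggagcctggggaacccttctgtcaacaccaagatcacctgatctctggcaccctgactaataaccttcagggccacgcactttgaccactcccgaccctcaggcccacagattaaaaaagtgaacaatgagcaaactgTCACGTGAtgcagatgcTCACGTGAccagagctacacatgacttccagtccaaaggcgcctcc
Ctsd: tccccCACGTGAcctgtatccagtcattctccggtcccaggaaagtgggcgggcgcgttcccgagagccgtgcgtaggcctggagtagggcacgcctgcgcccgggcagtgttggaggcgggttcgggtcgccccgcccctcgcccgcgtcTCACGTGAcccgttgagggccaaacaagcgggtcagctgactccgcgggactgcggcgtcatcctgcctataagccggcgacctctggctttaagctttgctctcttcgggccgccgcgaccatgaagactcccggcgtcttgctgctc
Mcoln1: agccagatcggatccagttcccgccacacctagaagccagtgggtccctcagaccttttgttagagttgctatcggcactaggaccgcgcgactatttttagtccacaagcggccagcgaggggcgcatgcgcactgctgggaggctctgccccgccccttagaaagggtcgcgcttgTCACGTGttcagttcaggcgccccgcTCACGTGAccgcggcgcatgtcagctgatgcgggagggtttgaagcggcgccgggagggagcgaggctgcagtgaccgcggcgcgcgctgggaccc
Lamp1: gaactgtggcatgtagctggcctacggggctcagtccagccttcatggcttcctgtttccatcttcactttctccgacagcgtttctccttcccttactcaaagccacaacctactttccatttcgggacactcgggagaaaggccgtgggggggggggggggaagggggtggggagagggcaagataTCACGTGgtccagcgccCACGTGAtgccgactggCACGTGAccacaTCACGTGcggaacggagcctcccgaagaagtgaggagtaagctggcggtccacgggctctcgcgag
Atp6v1a: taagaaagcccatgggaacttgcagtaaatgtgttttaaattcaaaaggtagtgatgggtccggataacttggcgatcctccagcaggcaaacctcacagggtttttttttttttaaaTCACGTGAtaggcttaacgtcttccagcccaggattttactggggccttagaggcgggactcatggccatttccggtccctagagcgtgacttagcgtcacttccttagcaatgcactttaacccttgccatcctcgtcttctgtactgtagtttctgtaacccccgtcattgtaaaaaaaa
Atp6ap2: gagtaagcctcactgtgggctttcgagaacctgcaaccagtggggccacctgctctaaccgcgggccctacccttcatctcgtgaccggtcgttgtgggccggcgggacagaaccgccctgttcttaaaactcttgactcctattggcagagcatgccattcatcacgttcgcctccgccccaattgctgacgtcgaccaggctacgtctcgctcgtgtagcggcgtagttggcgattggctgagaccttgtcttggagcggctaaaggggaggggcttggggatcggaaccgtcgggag

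The Lamp1 window holds 4 copies of the core, the Ctsa, Ctsd and Mcoln1 windows hold 2 each, and the Atp6v1a window holds 1. The core was present in 12 of the 38 matched members (31.6%), against 2187 of 27025 genes with a promoter entry (8.09%). All 12 were among the 27 matched members above the level filter, which is 44.4% of them, against 1161 of 10293 such genes in all (11.3%). The extended letters TCACGTG, which contain the core, were in 10 of the 27 (37%), against 6.43% of all genes above the filter and 4.29% of all genes. By role, the core stood in 4 of 5 matched cathepsins above the filter (Ctsa, Ctsd, Ctsf and Ctsl) and in 4 of 13 matched pump genes (Atp6v0b, Atp6v0d1, Atp6v0e and Atp6v1a). These matches are letters in a window and say nothing of binding.

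Measures over whole arrays overlapped between genotypes. Median log2 levels over all probe sets lay between 5.96 and 6.00 in the 7 arrays. Mex3a itself, the targeted gene, had log2 levels of 6.18, 6.29 and 6.07 in KO arrays, against 7.41, 7.38, 7.50 and 7.01 in WT arrays, so all 3 KO arrays were below all 4 WT arrays (log2 difference -1.13, adjusted p = 0.142 in limma). Epcam, the sorting marker, overlapped between groups, at 11.88 to 11.99 in KO arrays and 11.87 to 11.99 in WT arrays. Scan batch, which the labels give, held 1 KO and 2 WT arrays in batch 1 and 2 KO and 2 WT arrays in batch 2. The mean log2 level of 3 measured Y-linked genes was 7.62 in KO replicate 3 and 7.47 in WT replicate 2, and between 4.41 and 4.53 in the other 5 arrays (2 KO and 3 WT). Marker lists of lymphocytes, neutrophils and mast cells, fibroblasts and endothelium had 3, 2, 3 and 4 tested genes. Of these, 1 had an unadjusted p under 0.05 in limma, the endothelial Cdh5 (log2 difference -0.41), against 4.26% of all genes lower in KO. Fibroblast transcripts set 2 arrays apart, 1 of each genotype: the log2 of the summed level of the 6 fibroblast markers was 8.51, 9.70 and 8.65 in KO arrays, against 8.48, 8.81, 9.73 and 8.62 in WT arrays.

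The comparison asked whether the lysosomal machinery is expressed at another level in Mex3a KO than in Mex3a WT adenoma cells. No member passed the test. In limma, with scan batch as a covariate and Benjamini-Hochberg adjustment over all 12822 genes above the level filter (the brightest probe set per gene, with the lowest 25% of genes by mean level left out), 0 of 36 members reached an adjusted p under 0.05, against 0 of 12822 genes (0%). The smallest adjusted p of a member was 0.414, for Atp6ap2, whose unadjusted p ranked 855 among all genes. At an unadjusted p under 0.05, 1 member was higher in KO (Atp6ap2, 2.78% of members, against 7.14% of all genes) and 1 was lower (Lamtor2, 2.78%, against 4.26% of all genes). A refit with weights estimated for each array called 1370 genes (10.7%) and 5 of the 36 members (13.9%): Atp6ap2, Atp6v1d and Lamp2 higher in KO, Lamtor2 and Atp6v1g2 lower. The weights were estimated from the same 7 arrays with 4 residual degrees of freedom. They were 0.298, 3.04 and 1.45 for KO arrays, against 1.23, 0.442, 2.31 and 0.608 for WT arrays, so KO replicate 2 and WT replicate 3 counted most. Those are also the arrays set apart by fibroblast transcripts, and the part of these transcripts in the weighted calls was not tested.

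**Figure D1:**
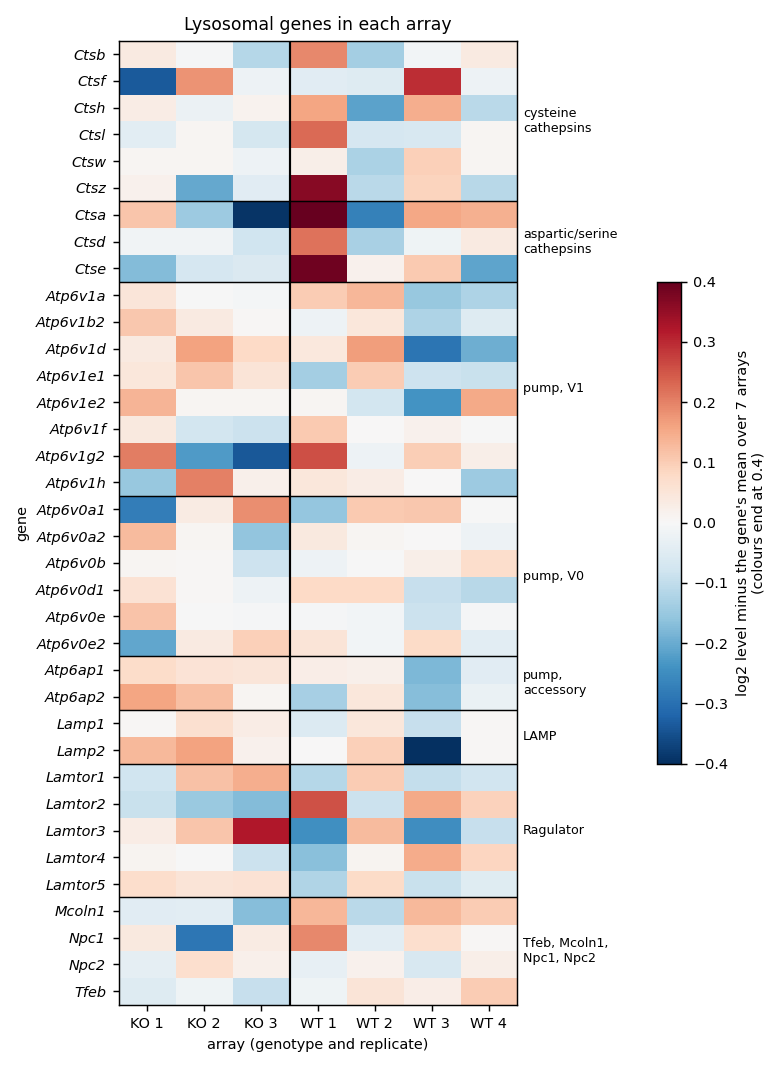
Log2 level of each of the 36 tested members (rows, grouped by role) in each array (columns, 3 KO then 4 WT), as the difference from that gene's mean over the 7 arrays. Red is above and blue below the mean; WT replicate 1 is the highest array for 7 of the 9 cathepsins, and WT replicate 3 the lowest for 7 of the 16 pump genes.

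The differences were small and went both ways. Of the 36 members, 18 had a higher and 18 a lower fitted level in KO, which is 50% higher, against 43.9% of all genes. Their median log2 difference was -0.0040, against -0.019 for all genes. The median size without regard to sign was 0.10, against 0.094 for all genes, and the largest was 0.27, a 1.204-fold difference, for Lamtor3. The 95% intervals of these differences lay within 2-fold for all 36 members, within 1.5-fold for 35 (the exception was Ctsa) and within 1.2-fold for 14. The standard errors that set these intervals ran between 0.044 and 0.17 on the log2 scale. Because the samples are sorted but bulk, fewer cells of one type and less RNA per cell cannot be told apart.

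**Figure D2:**
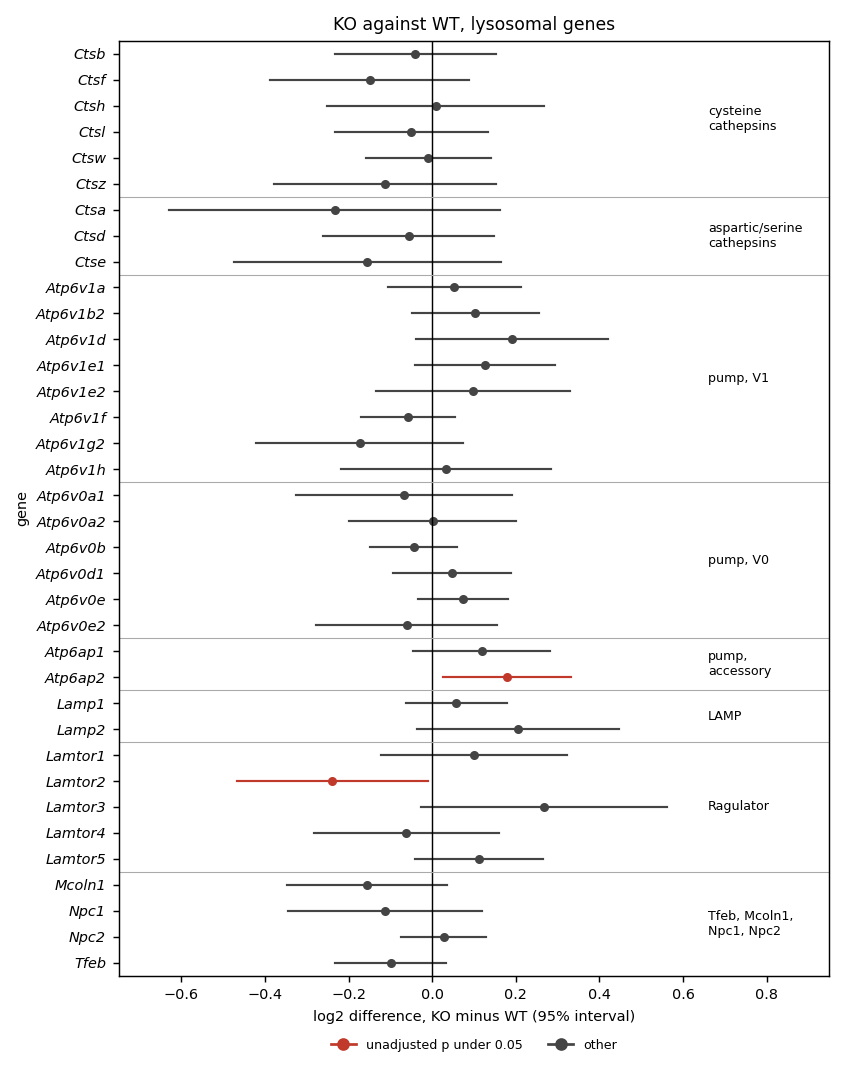
Fitted log2 difference, KO minus WT (points), with its 95% interval (lines) for the 36 tested members, grouped by role; a value right of 0 is higher in KO. Only the intervals of Atp6ap2 and Lamtor2, drawn in red, leave out 0, and none of the 36 passes after adjustment over all genes.

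Among the cathepsins, 9 of 17 genes were tested, and 8 of the 9 had a lower fitted level in KO, against 7192 of all 12822 genes. The median log2 difference of the 9 was -0.057, and none had an unadjusted p under 0.05. Ctsd, the main aspartic protease of lysosomes, had log2 levels of 10.48, 10.48 and 10.41 in KO arrays, against 10.71, 10.36, 10.47 and 10.53 in WT arrays. The KO arrays lay inside the WT range, and the log2 difference was -0.06 ± 0.09 (SE). Ctsa, the carboxypeptidase that also shields lysosomal beta-galactosidase and neuraminidase from degradation, had 10.34, 10.08 and 9.83 in KO arrays, against 10.63, 9.96, 10.38 and 10.37 in WT arrays. This was the largest cathepsin difference, at -0.23 ± 0.17 (SE; limma adjusted p = 0.592), and also the least certain: WT replicate 2 lay below 2 of the 3 KO arrays.

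The cysteine proteases Ctsb and Ctsl also overlapped between groups. Ctsb had 11.07, 11.03 and 10.92 in KO arrays, against 11.23, 10.90, 11.03 and 11.07 in WT arrays. Ctsl, which cuts a broad range of lysosomal substrates, had 11.03, 11.08 and 11.00 in KO arrays, against 11.29, 11.00, 11.00 and 11.07 in WT arrays. In both genes WT replicate 1 was the highest array and the other WT arrays overlapped the KO arrays, with log2 differences of -0.04 ± 0.08 for Ctsb and -0.05 ± 0.08 for Ctsl (SE).

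Ctsz, a carboxypeptidase, had 10.88, 10.67 and 10.82 in KO arrays, against 11.23, 10.76, 10.96 and 10.76 in WT arrays (log2 difference -0.11 ± 0.12, SE). Its other 2 probe sets also had negative differences, of -0.26 and -0.32, again with WT replicate 1 highest. Ctsf, a cysteine cathepsin, had 6.04, 6.56 and 6.36 in KO arrays, against 6.33, 6.32, 6.67 and 6.36 in WT arrays; its difference of -0.15 ± 0.10 (SE) had the smallest p of the cathepsins (limma adjusted p = 0.569). Ctse, an aspartic protease best known from gastric and immune cells, had 7.99, 8.10 and 8.11 in KO arrays, against 8.56, 8.18, 8.27 and 7.96 in WT arrays, so WT replicate 4 lay below every KO array while the other WT arrays lay above them. The Ctse difference of -0.16 was -0.38 within scan batch 1 and -0.0084 within scan batch 2, and that of Ctsf was -0.29 and -0.058. Ctsh, an aminopeptidase, and Ctsw, known from cytotoxic lymphocytes, had differences of 0.0086 and -0.0098.

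As a group, the cathepsins were highest in a single WT array. WT replicate 1 was the highest of the 7 arrays for 7 of the 9 cathepsins, against 17.8% of all genes. The mean of the 9, given as its distance from the mean over the 7 arrays, was -0.040, -0.029 and -0.088 in KO arrays, against 0.21, -0.12, 0.088 and -0.024 in WT arrays. The 3 KO values lay between those of the WT arrays, which spanned both ends of the range. Without WT replicate 1, 4 of the 9 cathepsins were lower in KO and their median difference was 0.0015. Within scan batch 2, which does not hold that array, all 9 were lower, with a median of -0.057. Within scan batch 1, which does, 5 of 9 were lower, with a median of -0.059. Without WT replicate 2 all 9 were lower, with a median of -0.11. The log2 signal of Gapdh control probes at the 3′ end minus that at the 5′ end, a measure of RNA quality, was -0.15, -0.21 and -0.24 in KO arrays, against -0.13, -0.21, -0.12 and -0.12 in WT arrays. With that measure as a further covariate, 4 of the 9 cathepsins were lower in KO and the median was 0.030. The same measure from actin control probes ordered the arrays differently. It was -0.30, -0.51 and -0.45 in KO arrays, against -0.49, -0.43, -0.50 and -0.45 in WT arrays. No fit was run with the actin measure as a covariate, and the part of RNA quality was not tested. The spread was also unequal: the SD over KO arrays was smaller than that over WT arrays for 8 of 9 cathepsins, with a median SD of 0.063 in KO and 0.17 in WT, where 66.5% of all genes had the smaller SD in KO.

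Among other lysosomal hydrolases, glycosidases and the lipid hydrolase and saposin list were also highest in WT replicate 1. Sulfatases stood below their mean there. The mean of 11 measured lysosomal glycosidases, which remove sugars from glycoproteins and glycolipids, stood at 0.0038, -0.037 and -0.040 in KO arrays, against 0.24, -0.094, 0.038 and -0.11 in WT arrays. The 6 sulfatase genes, which remove sulfate groups, counted Sumf1, their activating enzyme, among them. Their mean stood at -0.032, 0.14 and 0.049 in KO arrays, against -0.11, 0.10, -0.057 and -0.095 in WT arrays. Over the 5 above the filter, WT replicate 4 was lowest (-0.15) and WT replicate 1 stood at -0.10. The mean of the 11 genes of the lipid hydrolase and saposin list stood at 0.050, 0.015 and -0.015 in KO arrays. In WT arrays it stood at 0.10, -0.057, -0.041 and -0.054. A high WT replicate 1 was not limited to hydrolases. It was also the highest array for membrane transporters (0.11), Rag GTPases and mTORC1 (0.13), pump assembly (0.085) and autophagy (0.044), all described below. It was not the highest for mannose 6-phosphate genes (0.049), cystatins and stefins (0.024) or TFEB relatives and partners (-0.015).

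Macrophages are cells that an Epcam-positive sort should remove, and their marker genes went both ways in WT replicate 1. Of 9 tested myeloid markers, 3 were highest there (C1qb, C1qc and Cd68) and 3 lowest (Lyz2, Cd14 and Fcgr1). Over all 14 listed markers the mean stood at -0.081, 0.0087 and 0.098 in KO arrays, against 0.078, -0.060, 0.0073 and -0.051 in WT arrays, so KO replicate 3 was highest. C1qb, a complement gene typical of tissue macrophages, had 5.83, 5.80 and 6.15 in KO arrays, against 6.73, 5.49, 5.80 and 5.78 in WT arrays. C1qc, its partner, had 5.71, 5.83 and 6.20 in KO arrays, against 6.54, 5.45, 5.83 and 5.79 in WT arrays. Both C1q genes were lowest in WT replicate 2.

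Cd68, a lysosomal protein of macrophages, had 7.06, 7.19 and 7.53 in KO arrays, against 7.66, 7.40, 7.04 and 7.19 in WT arrays. These 3 genes were chosen for display after their values were seen; Cd14 and Fcgr1, at 6.00 and 5.21 in WT replicate 1, went the other way. Over the whole list of 14 macrophage and other myeloid markers, 9 were above the filter, and Adgre1, Itgam, Mrc1, C1qa and Aif1 were not. With Lyz2 given apart, the log2 of the list's summed level ran between 9.51 and 9.78 in KO arrays and between 9.60 and 9.84 in WT arrays. Lyz2 itself ran between 12.39 and 12.53 in KO arrays and between 11.63 and 12.30 in WT arrays, where WT replicate 1 was the lowest. Its difference was 0.39 (limma adjusted p = 0.414). Of the 9 tested markers it was the 1 with an unadjusted p under 0.05, against 7.14% of all genes higher in KO. It was also the 1 with all KO arrays above all WT arrays, against 2.68% of all genes. The part of macrophages and other myeloid cells in the cathepsin levels was not tested.

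**Figure D3:**
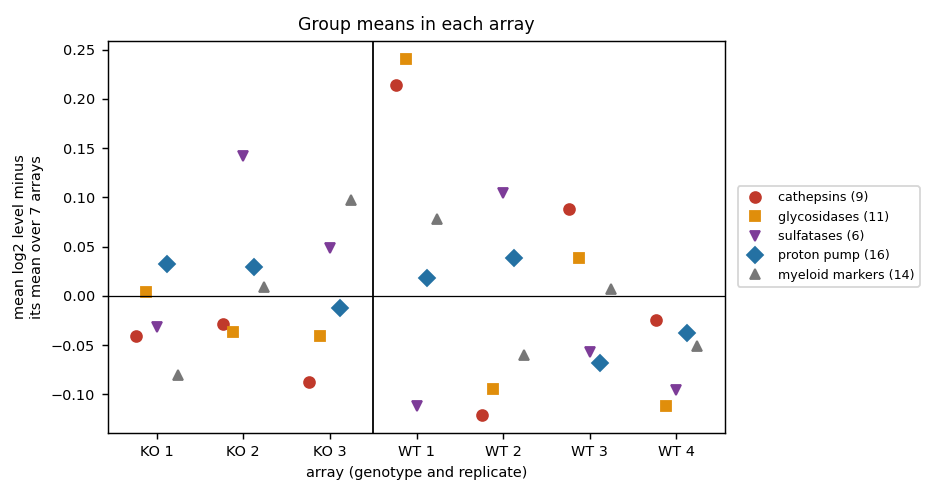
Mean log2 level of 5 gene groups in each array (3 KO, then 4 WT), as the distance from the group's mean over the 7 arrays; counts in the legend are genes per group. Cathepsins and glycosidases both stand highest in WT replicate 1 (0.21 and 0.24), where the proton pump stands at 0.018 and sulfatases at -0.11, and the myeloid markers stand highest in KO replicate 3 (0.098).

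For the proton pump, 16 of 20 genes were tested, and 11 of the 16 had a higher fitted level in KO, against 43.9% of all genes. The median log2 difference of the 16 was 0.050. Only Atp6ap2 had an unadjusted p under 0.05. Without WT replicate 3, the lowest array for 7 of the 16 and 1 of the 2 with high fibroblast transcripts, the pump median was 0.029, and without KO replicate 2, the other such array, it was 0.030; the part of those transcripts was not tested. The V1 sector carried most of the positive differences (6 of 8 tested subunits, median 0.076, or 0.029 without WT replicate 3). The V0 sector was even (3 of 6, median -0.021), and its median was 0.045 without KO replicate 1 and 0.015 without KO replicate 3. Atp6v1d, a shaft subunit of the V1 rotor, had the largest pump difference: 10.50, 10.63 and 10.55 in KO arrays, against 10.51, 10.63, 10.17 and 10.27 in WT arrays. The 2 WT arrays of batch 1 matched the KO arrays and the 2 of batch 2 lay below them. The log2 difference was 0.19 ± 0.10 (SE; limma adjusted p = 0.478), and it was -0.07 within scan batch 1 and 0.36 within scan batch 2. In its other 2 probe sets all KO arrays exceeded all WT arrays, with differences of 0.29 and 0.37, each at an adjusted p of 0.499 over all probe sets in limma.

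Atp6v1e1, a subunit of the V1 stalk, had 10.71, 10.78 and 10.72 in KO arrays, against 10.53, 10.77, 10.58 and 10.58 in WT arrays, so that WT replicate 2 alone reached the KO range (difference 0.13 ± 0.07, SE). Of its 4 probe sets, 3 had positive differences and 1, of low level, had -0.17. Atp6v1f, a small rotor subunit, had 11.34, 11.23 and 11.22 in KO arrays, against 11.41, 11.30, 11.32 and 11.30 in WT arrays, a difference of -0.06 ± 0.05 (SE). Atp6v1g2, a stalk subunit known mainly from brain, had 5.52, 5.10 and 4.98 in KO arrays, against 5.58, 5.30, 5.42 and 5.35 in WT arrays. It had the most negative pump difference (-0.17 ± 0.11, SE) at a level close to the filter of 5.279. The catalytic subunit Atp6v1a, whose promoter is printed above, and Atp6v1b2, its partner in the ATP-hydrolysing ring, had differences of 0.05 and 0.10.

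The V0 genes with the smallest p or the highest level had small differences. Atp6v0e, a small membrane subunit, had 11.45, 11.33 and 11.33 in KO arrays, against 11.33, 11.32, 11.25 and 11.33 in WT arrays (difference 0.07 ± 0.05, SE). Atp6v0b, part of the proton-carrying ring, had 11.79, 11.79 and 11.70 in KO arrays, against 11.76, 11.78, 11.80 and 11.85 in WT arrays (difference -0.04 ± 0.04, SE). Atp6v0d1, which joins the ring to the V1 rotor, had 10.34, 10.29 and 10.26 in KO arrays, against 10.36, 10.36, 10.19 and 10.17 in WT arrays (difference 0.05 ± 0.06, SE). In each of these 3 genes the groups overlapped. Atp6v0a1, an isoform of the proton channel subunit, had differences between -0.27 and 0.05 over 4 probe sets, and the dimmest of them had an unadjusted p under 0.05 for a lower level in KO.

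The 2 accessory proteins, which help the pump assemble and both lie on the X chromosome, were higher in KO in the fit. Atp6ap2, also known as the prorenin receptor, had 11.40, 11.36 and 11.25 in KO arrays, against 11.11, 11.29, 11.07 and 11.22 in WT arrays. WT replicate 2 lay above the lowest KO array, and the other 3 WT arrays lay below all KO arrays. The log2 difference was 0.18 ± 0.07 (SE; p = 0.0281 and adjusted p = 0.414 in limma; two-sided exact permutation p = 0.114, where 35 assignments allow no p under 0.0286). Both its other probe sets had positive differences as well, of 0.24 and 0.38, and all 3 were under an unadjusted p of 0.05. Among all 45037 non-control probe sets, 5.58% were under that p and higher in KO, against 6 of the members' 82 probe sets (7.32%), and 3.81% were lower, against 2 of 82 (2.44%). All KO arrays exceeded all WT arrays in 4 of the 82 (4.88%, against 2.16% of all probe sets), and the reverse held in 2 (2.44%, against 2.8%).

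Atp6ap1 had 10.05, 10.03 and 10.02 in KO arrays, against 10.00, 10.00, 9.80 and 9.93 in WT arrays. It was the only tested member in which all KO arrays exceeded all WT arrays (2.78% of members, against 2.68% of all genes), by a narrow margin, and its difference of 0.12 ± 0.07 (SE) had a limma adjusted p of 0.533. The third X-linked member was Lamp2, at 11.27, 11.30 and 11.16 in KO arrays, against 11.14, 11.24, 10.74 and 11.15 in WT arrays. Its difference of 0.21 ± 0.10 (SE; limma adjusted p = 0.472) was 0.08 without WT replicate 3, the one low array. In the 5 arrays with low Y-linked levels, the differences of Atp6ap1, Atp6ap2 and Lamp2 were 0.12, 0.25 and 0.26.

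Lamp2 encodes a LAMP needed for the fusion of autophagosomes with lysosomes. Its other 2 probe sets had differences of 0.05 and -0.0079, which do not follow the brightest one. Lamp1, the other major glycoprotein of the lysosomal membrane, had 11.35, 11.41 and 11.38 in KO arrays, against 11.29, 11.39, 11.25 and 11.35 in WT arrays (difference 0.06 ± 0.05, SE).

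**Figure D4:**
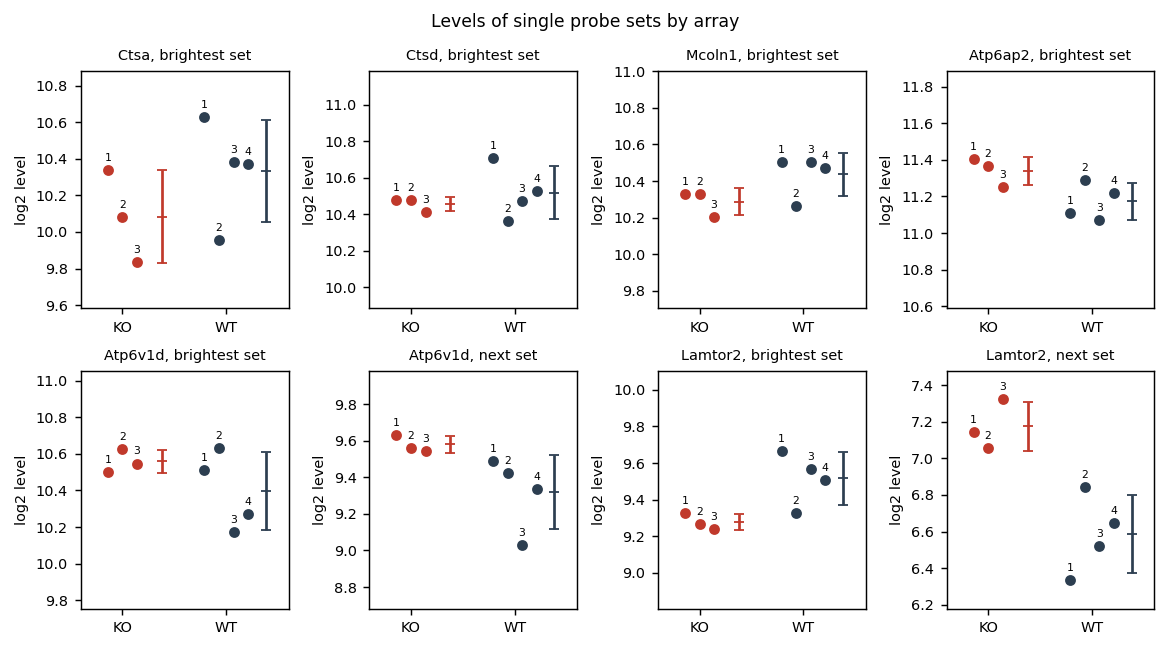
Log2 level of 8 probe sets from 6 members in each array (points, numbered by replicate; KO left, WT right), with the mean and SD of each group (bar; n = 3 KO and 4 WT arrays). The KO arrays of Ctsd lie inside the WT range, and the 2 probe sets of Lamtor2 separate the groups in opposite directions.

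Ragulator gave both extremes of the 36 members. Lamtor3 had 8.70, 8.78 and 8.99 in KO arrays, against 8.43, 8.80, 8.42 and 8.58 in WT arrays, where WT replicate 2 lay above 2 of the KO arrays (difference 0.27 ± 0.13, SE; limma adjusted p = 0.462). Lamtor2, its partner in the complex, had 9.33, 9.27 and 9.24 in KO arrays, against 9.67, 9.33, 9.57 and 9.51 in WT arrays. It was the only tested member with every KO array below every WT array (2.78% of members, against 3.23% of all genes), although the gap between the nearest arrays was small. The difference was -0.24 ± 0.10 (SE; p = 0.0429 and adjusted p = 0.434 in limma; exact permutation p = 0.0571).

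The second probe set of Lamtor2 went the other way. It had 7.15, 7.06 and 7.32 in KO arrays, against 6.33, 6.84, 6.52 and 6.65 in WT arrays. All 3 KO arrays were above all 4 WT arrays, with a difference of 0.59 ± 0.14 (SE), the smallest p of the members' 82 probe sets (limma adjusted p = 0.458 over all probe sets). The direction of Lamtor2 therefore depended on the probe set, and the cause was not tested. Lamtor1, which carries the lipid anchor of the complex, had 9.31, 9.51 and 9.54 in KO arrays, against 9.28, 9.49, 9.30 and 9.31 in WT arrays, and its 2 probe sets had like differences of 0.10 and 0.08. Lamtor5 had 10.64, 10.63 and 10.63 in KO arrays, against 10.46, 10.65, 10.49 and 10.52 in WT arrays; WT replicate 2 alone reached the KO level (difference 0.11 ± 0.07, SE). Lamtor4 had a difference of -0.06.

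**Figure D5:**
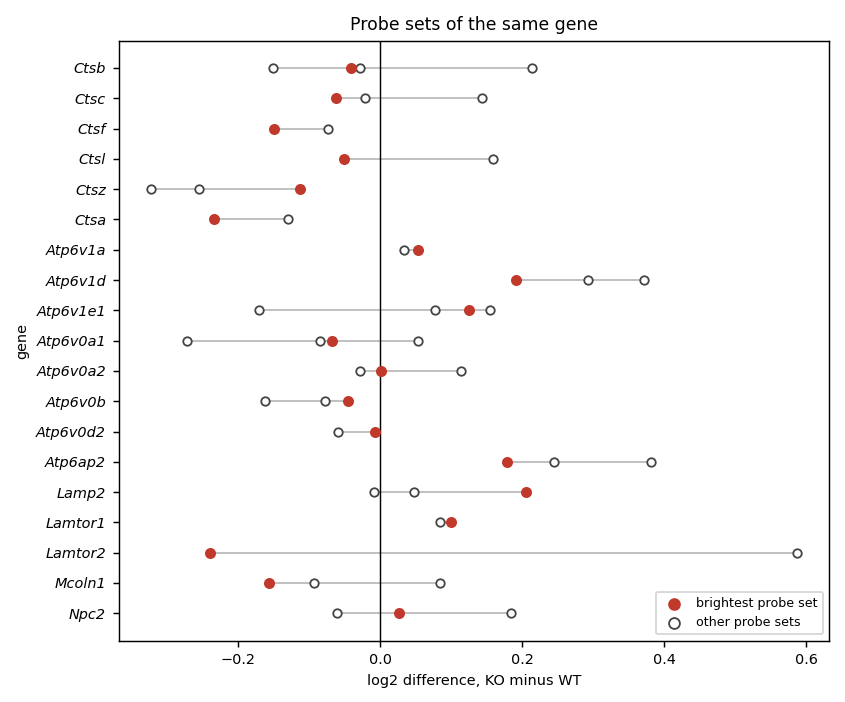
Fitted log2 difference, KO minus WT, of every probe set (circles; filled for the brightest) of the 19 members with more than 1 probe set. All probe sets of a gene lie on the same side of 0 for 9 of the 19, among them Atp6ap2 and Atp6v1d, and the 2 of Lamtor2 lie at -0.24 and 0.59.

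Probe sets of the same gene pointed the same way for 9 of 19 members (47.4%), against 3569 of 7180 genes with several probe sets (49.7%). Those 9 were Atp6ap2, Atp6v1a, Atp6v1d and Lamtor1, with positive differences throughout, and Atp6v0b, Atp6v0d2, Ctsa, Ctsf and Ctsz, with negative ones. Over all probe sets, 39 of the members' 82 had a positive difference (47.6%), against 41.9% of the 45037.

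Of the genes that regulate lysosomes or move their contents, 3 of 4 had a lower fitted level in KO, against 7192 of all 12822 genes. Mcoln1, the calcium channel of the lysosomal membrane, had 10.33, 10.33 and 10.20 in KO arrays, against 10.51, 10.26, 10.50 and 10.47 in WT arrays. WT replicate 2 lay among the KO arrays and the other 3 WT arrays lay above them (difference -0.16 ± 0.08, SE; limma adjusted p = 0.492). Its other 2 probe sets had differences of 0.09 and -0.09. Tfeb had 5.58, 5.62 and 5.54 in KO arrays, against 5.62, 5.69, 5.66 and 5.74 in WT arrays, where WT replicate 1 equalled the top KO array (difference -0.10 ± 0.06, SE; limma adjusted p = 0.521).

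The remaining pair exports cholesterol from the lysosome, with Npc2 in the lumen handing it to Npc1 in the membrane. Npc1 had 10.28, 9.95 and 10.27 in KO arrays, against 10.43, 10.20, 10.31 and 10.25 in WT arrays (difference -0.11 ± 0.10, SE), and without KO replicate 2, the lowest array, its difference was -0.02. Npc2 had 11.85, 11.96 and 11.91 in KO arrays, against 11.86, 11.91, 11.82 and 11.91 in WT arrays (difference 0.03 ± 0.04, SE).

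Split by promoter letters, the 12 tested members with the E-box core had a median log2 difference of -0.047 (5 higher and 7 lower in KO), and the 15 matched members without it had 0.027 (8 higher and 7 lower). Ctsa, Ctsd and Mcoln1, printed above, were on the lower side and Lamp1 and Atp6v1a on the higher side, each with overlapping groups. The mean of the 12 stood at -0.014, 0.014 and -0.063 relative to the 7-array mean in KO arrays, against 0.063, -0.022, 0.013 and 0.0092 in WT arrays, so the groups overlapped. The split was not tested.

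The rest of the pathway was read from lists of genes that share the organelle, and none of their genes passed the adjusted test either. The list of lipid hydrolases and saposins had 8 of 11 tested genes higher in KO (median 0.14), against 43.9% of all genes. The higher genes include the peptidase Tpp1 (0.14) and the phosphatase Acp2 (0.11), which the list also holds. Of the 11, 2 were under an unadjusted p of 0.05 in each direction, against 7.14% of all genes higher and 4.26% lower. Psap, the precursor of the saposins that present lipids to hydrolases, had 11.31, 11.47 and 11.43 in KO arrays, against 11.63, 11.47, 11.62 and 11.52 in WT arrays (difference -0.17 ± 0.06, SE). Galc, which degrades galactosylceramide, had 7.53, 7.28 and 7.23 in KO arrays, against 8.00, 7.82, 7.46 and 7.54 in WT arrays (difference -0.30 ± 0.09, SE; limma adjusted p = 0.388). Asah1, the acid ceramidase, and Ppt2, a thioesterase, had differences of 0.17 and 0.25. All KO arrays lay above all WT arrays for Asah1, 1 of the 11, against 2.68% of all genes. All lay below for Psap, also 1 of the 11, against 3.23%, by a narrow margin.

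The membrane transporters had 8 of 14 lower in KO (median -0.089), against 7192 of all 12822 genes. Of the 14, 3 were lower at an unadjusted p under 0.05, against 4.26% of all genes, and 1 was higher, against 7.14%. Spns1, which exports lysophospholipids, had 8.77, 8.60 and 8.48 in KO arrays, against 9.30, 8.78, 9.12 and 9.00 in WT arrays. Its difference was -0.42 ± 0.14 (SE, limma adjusted p = 0.409). Every KO array lay below every WT array for Spns1 and Cln3 (difference -0.29), 2 of the 14, against 3.23% of all genes. Tmem175, an ion channel that sets lysosomal pH against the pump, had 7.16, 7.46 and 7.25 in KO arrays, against 7.45, 7.45, 7.77 and 7.60 in WT arrays (difference -0.31 ± 0.09, SE; limma adjusted p = 0.388). Tpcn2, another lysosomal channel, had a difference of -0.15, and Scarb2, the carrier of glucocerebrosidase, one of 0.30.

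The list of TFEB relatives, partners and a repressor had 4 of 5 tested genes higher in KO (median 0.23), against 43.9% of all genes. Of these, 3 were under an unadjusted p of 0.05, against 7.14% of all genes. The higher genes were Flcn, Fnip1, Fnip2 and Zkscan3. Tfe3, the relative of TFEB above the filter, was lower in KO (difference -0.07 ± 0.10, SE). Zkscan3, described as a repressor of lysosomal genes, had 8.26, 8.31 and 8.34 in KO arrays, against 8.26, 8.19, 7.85 and 7.91 in WT arrays (difference 0.28 ± 0.10, SE). Fnip2, a partner of folliculin, had 6.61, 6.66 and 6.69 in KO arrays, against 6.44, 6.56, 6.38 and 6.31 in WT arrays (difference 0.24 ± 0.08, SE), and Fnip1, its paralog, had a difference of 0.23. Both Zkscan3 and Fnip2 had all KO arrays above all WT arrays (2 of 5 tested, against 2.68% of all genes), at limma adjusted p-values of 0.414 and 0.409. For Zkscan3 the margin was narrow, at 8.265 against 8.256 in the nearest arrays. On the list of Rag GTPases, mTORC1 subunits and their regulators, 6 of 8 tested genes were lower in KO (median -0.10), against 7192 of all 12822 genes. The 6 were Mtor, Rptor, Mlst8, Tsc1, Depdc5 and Nprl2, while Rheb (0.09) and Rragc were higher. Rragc, the tested Rag GTPase that Ragulator holds, was the 1 with an unadjusted p under 0.05, against 7.14% of all genes higher in KO. It was also the 1 of the 8 with all KO arrays above all WT arrays, against 2.68% of all genes. It had 8.54, 8.50 and 8.50 in KO arrays, against 8.37, 8.48, 8.07 and 8.25 in WT arrays (difference 0.25 ± 0.10, SE).

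Glycosidases split 5 and 5 (median -0.0055), autophagy genes 9 and 9 (median 0.012), and sulfatases 3 higher and 2 lower, with Sumf1, the enzyme that activates sulfatases, at 0.70 ± 0.24 (SE; limma adjusted p = 0.414). Pump assembly genes had 5 of 6 higher (median 0.082), against 43.9% of all genes. Of the 6, Oxr1 at 0.33 and Wdr7 at 0.18 were under an unadjusted p of 0.05, against 7.14% of all genes higher in KO. The mannose 6-phosphate genes, which tag hydrolases for delivery to lysosomes, had 5 of 8 lower (median -0.037), against 7192 of all 12822 genes. Among them, Nagpa stood at -0.35 ± 0.13 (SE). Of the 3 tested cystatins and stefins, which inhibit cysteine cathepsins, Cstb had 10.19, 10.09 and 10.19 in KO arrays, against 10.06, 10.00, 9.93 and 9.95 in WT arrays (difference 0.18 ± 0.07, SE; limma adjusted p = 0.414). Cstb was the 1 of these 3 with all KO arrays above all WT arrays, against 2.68% of all genes. Acp2, Asah1, Cln3, Flcn, Fnip1, Mlst8, Mtor, Nprl2, Ppt2, Rheb, Rptor, Scarb2, Tfe3, Tpcn2, Tpp1 and Tsc1 were named after their values were seen.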

How the data were processed

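Expression was read from the table of log2 levels per probe set that the authors deposited, made with RMA (robust multi-array average: background correction, joint normalization and summary into probe sets). The name RMA comes per the submitters' processing notes, and no version, filter or batch correction is stated in the sources used here. There were 45141 probe sets on 7 arrays, of which 104 were controls, 28898 had 1 symbol in the platform annotation, 551 several and 15588 none. All 48 members matched the RefSeq annotation of GRCm38.p6 by Entrez number, with equal symbols. Arrays carry no count of depth; their number limits the precision.

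Of each gene (17097 in all) the brightest probe set by mean level was kept, and the lowest 25% of genes by mean level (5.279 or less) were left out, leaving 12822. KO was compared with WT in limma 3.58.1 (R 4.3.3; lmFit, eBayes with trend), scan batch as covariate, two-sided, Benjamini-Hochberg at 0.05. Residual degrees of freedom were 4. The same fit over 45037 non-control probe sets, with no filter, gave the values of single probe sets. Differences come from the fit, array values from the table. Single values were also compared by exact permutation over 35 assignments of labels. The fit was tested on simulated data first. Genes were described in full if they had 1 of the 3 smallest p-values or the highest level in their role group, did not overlap between groups, or were Tfeb, Mcoln1, Npc1, Npc2, Lamp1, Lamp2, Ctsb, Ctsd or Ctsl; of each context list the 2 smallest p-values could be named. Members and lists were chosen with earlier results of these data known. Replicates were numbered in accession order.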

Additional observations from a re-analysis of the deposited data

Results flagged for a closer look

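In 4 of the 25 members described by array, 1 WT array stood apart from the other 3 by a gap that filled most of the group's range (Dixon's ratio above its 95% critical value for 4 samples). Chance gives such a gap in about 1 of 20 groups, and KO, with 3 arrays, was not examined. Atp6v0e had 11.25 in WT replicate 3, against 11.32 to 11.33 in the other WT arrays. Atp6v1f had 11.41 in WT replicate 1, against 11.30 to 11.32 in the others. Ctsf had 6.672 in WT replicate 3, against 6.323 to 6.356 in the others. Mcoln1 had 10.26 in WT replicate 2, against 10.47 to 10.51 in the others. The arrays that stood apart were not the same one throughout: WT replicate 3 for Atp6v0e and Ctsf, WT replicate 1 for Atp6v1f and WT replicate 2 for Mcoln1. No explanation was tested.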

How the results depend on the processing

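No member passed under any alternative except estimated array weights, where 1370 genes and 5 members did: Atp6ap2 (0.23), Atp6v1d (0.35) and Lamp2 (0.39) higher in KO, and Atp6v1g2 (-0.30) and Lamtor2 (-0.29) lower. Leaving out 1 array in turn gave 0 to 2 genes, none of them members; the 2 appeared without WT replicate 2 and without WT replicate 4. The counts that follow, at an unadjusted p under 0.05, lack the share of all genes, which was taken only for the reported fit. Counts under the alternatives therefore do not set the members apart from other genes. Members at that p numbered 1 higher and 1 lower in KO as reported (2.78% each, against 7.14% and 4.26% of all genes). They were 3 and 0 (higher and lower) with the mean of all probe sets, 3 higher with the probe set of largest variance, 0 higher within scan batch 1, 4 and 4 within scan batch 2, 10 and 4 with array weights, 3 and 4 in arrays with low Y-linked levels, and 0 higher with no variance trend or with the Gapdh covariate. Leaving out arrays gave 0 to 5 higher and 0 to 4 lower; each of KO replicate 2, WT replicate 1 and WT replicate 3 alone brought both to 0, KO replicate 3 brought the lower count to 0, and WT replicate 2 gave 5 and 4, KO replicate 1 gave 2 and WT replicate 4 gave 3 higher.

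The median of all members (-0.0040) became 0.031 with the mean of all probe sets, 0.040 with the probe set of largest variance, 0.020 within scan batch 2, -0.026 with array weights, -0.025 with quantile normalization repeated and 0.014 with the Gapdh covariate, and ran between -0.029 and 0.020 when arrays were left out. The median of the pump genes (0.050) stayed positive under every alternative run, between 0.029 (without WT replicate 3, and with quantile normalization repeated) and 0.098 with array weights; it was 0.030 without KO replicate 2, 0.032 with no batch term and 0.033 within scan batch 1. The median of the cathepsins (-0.057) turned positive with the Gapdh covariate (0.030) and without WT replicate 1 (0.0015). It was -0.11 without WT replicate 2, -0.10 in arrays with low Y-linked levels and likewise when the most variable probe set was used. With array weights it was -0.096, and with the mean of all probe sets -0.033. All 9 were lower in KO within scan batch 2, in arrays with low Y-linked levels, and without WT replicate 2 or WT replicate 4. Leaving out KO replicate 1, the only KO array of batch 1, gave the same differences as scan batch 2. That setting is therefore not a separate comparison.

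With the mean of all probe sets, Ctsl became 0.055 and Lamtor2 0.17. With the probe set of largest variance, Atp6v1e1 became -0.17, Ctsl 0.16, Lamtor2 0.59 and Mcoln1 0.085. Within scan batch 1, Atp6v0b became 0.018, Atp6v0d1 -0.022, Atp6v1d -0.068, Atp6v1g2 0.085, Ctsa 0.044, Ctsb 0.0070 and Npc2 -0.029. With the Gapdh covariate, Atp6v1g2 became 0.029, Ctsa 0.082, Ctsb 0.070, Ctsd 0.030 and Npc2 -0.0085. With array weights, Ctsl became 0.0051. When arrays were left out, Ctsb ran between -0.10 and 0.0086, Ctsd between -0.11 and 0.0015, Ctsl between -0.091 and 0.0069, each turning without WT replicate 1, and Npc2 between -0.0043 and 0.065, turning without WT replicate 3. The other named members kept their direction under the alternatives run, although Ctse was -0.0084 and Ctsf -0.058 without KO replicate 1. Apart from the choice of probe set and of arrays, the cause of these shifts was not tested.

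No paired analysis was possible because the labels carry no replicate numbers shared between KO and WT. With 3 KO and 4 WT arrays of amplified RNA, the 95% interval lay within 1.2-fold for 14 of the 36 tested members, so smaller differences were not resolved for most.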
